A study of Rattus norvegicus with 10 samples.

Results

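The genes described here are 10 genes of the integrated stress response, namely Atf4, Atf5, Ddit3, Trib3, Ppp1r15a, Asns, Psat1, Chac1, Ddit4 and Sesn2. The rule that lists them uses their known place in the pathway and no measured value, though earlier results of these data were known when it was written. A probe was taken for a gene when the accession printed on the array belonged to that gene. By that rule 8 of the 10 genes had a probe, among 13426 named genes on the array, and no probe was matched to Atf5 or Trib3. Signal was well above background for 7 of the 8. Psat1 was not well above background on any of the 10 arrays, so no fold change is given for it.

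Liver RNA of male Wistar rats was measured on 1-colour Agilent arrays, with 1 array per rat. Control rats (n = 3) received neither radiation nor drug. TBI rats (n = 3) received total body irradiation with gamma rays from cobalt, at 6.5 Gy according to the labels, and MASM + TBI rats (n = 4) received the same exposure after 30 mg/kg/day of MASM, a derivative of the plant alkaloid matrine, by stomach tube for 3 days. All livers were taken 24 h after exposure. The study's text gives another dose for these rats, so the dose is not settled. No array analysed here came from a rat given MASM alone, so an effect of MASM without radiation cannot be told apart from its effect on irradiated liver, and the age of the rats is not given in the sources used here.

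The integrated stress response is a switch from general to selective protein synthesis. Kinases that sense amino acid shortage, misfolded protein in the endoplasmic reticulum, double-stranded RNA or lack of haem phosphorylate the initiation factor eIF2, which slows most translation while it favours that of ATF4. ATF4 then binds, with partners of the C/EBP family, composite DNA elements in genes for amino acid supply, for glutathione turnover and for feedback on eIF2. Because ATF4 protein is set largely by translation, its mRNA is only part of the pathway's state, and protein and eIF2 phosphorylation were not analysed here. In liver the pathway is known for its part in the answer to dietary amino acid shortage and to stress of the endoplasmic reticulum.

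Sequences upstream of the start site are shown for Atf4, the factor, and for Chac1 and Ppp1r15a, the members whose signal differed most between TBI and control rats. Each is the 250 bases before the annotated start in RefSeq's GRCr8 assembly, written 5′ to 3′ on the strand of the gene. Capitals mark the letters TGATGNAA, the core of the C/EBP-ATF response element, or TGACGTCA, the cAMP response element, searched on both strands.
Atf4, chr7:113684431-113684680, plus strand: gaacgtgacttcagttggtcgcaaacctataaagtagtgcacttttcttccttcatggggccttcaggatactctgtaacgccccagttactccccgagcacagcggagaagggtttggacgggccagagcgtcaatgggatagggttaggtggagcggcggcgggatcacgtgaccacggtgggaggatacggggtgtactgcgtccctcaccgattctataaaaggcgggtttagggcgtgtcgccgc
Chac1, chr3:126795881-126796130, plus strand: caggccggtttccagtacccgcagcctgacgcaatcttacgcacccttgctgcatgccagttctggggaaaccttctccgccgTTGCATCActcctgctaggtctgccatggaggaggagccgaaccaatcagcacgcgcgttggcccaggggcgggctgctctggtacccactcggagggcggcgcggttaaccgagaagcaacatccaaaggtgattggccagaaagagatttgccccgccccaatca
Ppp1r15a, chr1:105139597-105139846, minus strand: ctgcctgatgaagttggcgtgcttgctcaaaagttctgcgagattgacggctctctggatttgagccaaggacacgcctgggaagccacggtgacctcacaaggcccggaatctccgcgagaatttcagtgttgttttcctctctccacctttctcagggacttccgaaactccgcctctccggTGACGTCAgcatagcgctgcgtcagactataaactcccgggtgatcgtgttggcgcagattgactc

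In the Chac1 window TGATGNAA was read on the reverse strand, from 167 to 160 bases before the start. The Ppp1r15a window held TGACGTCA, which reads alike on both strands, from 66 to 59 bases before the start. Of all 10 members, 2 (Chac1 and Trib3) held TGATGNAA in this window, against 3.40% of 33469 rat promoters, and 1 (Ppp1r15a) held TGACGTCA, against 1.59%. The Atf4 window held neither, and so did those of Sesn2, Ddit4, Ddit3, Asns, Psat1 and Atf5. A match describes letters and is not a site shown to be bound.

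The arrays were read with 3 facts in view. Cdkn1a, a p53 target used to check the labels, stood at a log2 signal of 8.01, 8.25 and 8.84 in control rats, 13.47, 13.67 and 14.06 in TBI rats and 12.80 to 13.58 in MASM + TBI rats, so both irradiated groups lay apart from the controls. The groups follow the labels. The array names under the study's heat map place the arrays labelled control under TBI and those labelled TBI under control, while the MASM + TBI arrays are named alike in both. Cdkn1a was high in the arrays labelled TBI, but it does not separate TBI from MASM + TBI. The 3 TBI arrays were all on 1 slide, so TBI and slide cannot be told apart. The controls shared their slide with MASM + TBI rat 3, and MASM + TBI rats 1, 2 and 4 were on the remaining slide. The share of spots well above background was 57.2% to 59.9% in control rats, 64.1% to 70.1% in TBI rats and 56.2% to 60.2% in MASM + TBI rats. With each array scaled to its 75th percentile, 23.1% of the probes that passed the test in TBI against control were higher in TBI rats, against 44.6% in the quantile-normalized values reported here. For MASM + TBI against TBI those shares were 82.6% and 55.1%.

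Marker lists give the cell types present. Each of 6 hepatocyte markers passed the background limit on each array, and the log2 of their summed signal ranged from 20.26 to 20.35 in control rats, 20.20 to 20.39 in TBI rats and 20.30 to 20.42 in MASM + TBI rats. Of 6 T cell markers, 2 fell in TBI (Cd3g and Cd2) and 1 in MASM + TBI rats (Cd3g) against control, and the log2 of their summed signal went from between 9.18 and 9.63 in control rats to between 7.98 and 8.85 in TBI rats and between 7.81 and 8.72 in MASM + TBI rats. Cd3e, a part of the T cell receptor complex, was not well above background in any group and is left out of these counts, though it passed the test in both. Endothelial markers summed to 10.99 to 11.39 in control rats and 11.50 to 11.97 over the irradiated groups, with 0 of 3 measured markers passing the test in either group. That sum follows the brightest marker, Lyve1, and not the list. Cdh5 was 7.20 to 7.96 in control, 7.21 to 7.39 in TBI and 6.77 to 7.19 in MASM + TBI rats. Estimates above 0 numbered 2 of 3 in TBI rats and 1 of 3 in MASM + TBI rats, where the median was -0.37. Stellate cell markers summed to 11.38 to 11.54 in control rats and 10.78 to 11.11 over the irradiated groups, with 1 of 3 lower in each. Of 2 measured B cell markers 1 fell in each irradiated group, and no neutrophil marker passed. Erythroid markers summed to 10.85 to 12.16 in control rats, 10.25 to 11.32 in TBI rats and 10.17 to 10.74 in MASM + TBI rats, the last without overlap with control, and 2 of 3 (Alas2 and Hbb) were lower there without overlap, though none passed the test. The remaining marker, Slc4a1, went the other way, at 5.35 to 7.18 in control, 7.31 to 8.37 in TBI and 6.92 to 7.95 in MASM + TBI rats. None of the 5 Kupffer cell markers passed in any comparison, while their summed log2 signal was 15.51 to 16.02 in control rats, 15.50 to 16.38 in TBI rats and 15.17 to 15.48 in MASM + TBI rats. In whole liver, fewer cells of a type and less RNA per cell cannot be told apart, and the part of these markers in the results that follow was not tested.

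After irradiation alone, Atf4 and Sesn2 rose, and Chac1, Ppp1r15a and Ddit4 lay higher in every TBI rat than in every control rat without passing the test. Atf4 rose 1.5-fold and Sesn2, which restrains mTORC1 signalling, 1.97-fold (n = 3 and 3). Chac1, the enzyme that cleaves glutathione in the cytosol, was 16.0-fold higher and Ppp1r15a, the phosphatase subunit that removes the phosphate from eIF2, 3.37-fold higher, both with wide errors. Ddit3 and Asns did not pass the test. A gene passed at an adjusted p under 0.05 in limma (Benjamini-Hochberg over all 40945 probes) with a difference of at least 1.5-fold. By that rule 2 of 8 measured members were higher and 0 lower, where 2.01% of all probes were higher. At an unadjusted p under 0.05 and 1.5-fold, which is the study's own threshold, 5 members were higher, where 6.53% of all probes were. For 5 of 8 members the TBI values lay above all control values without overlap, where 11.3% of all probes did. The median log2 difference of the 8 members was 0.59, and that of all probes was -0.03.

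**Figure D1:**
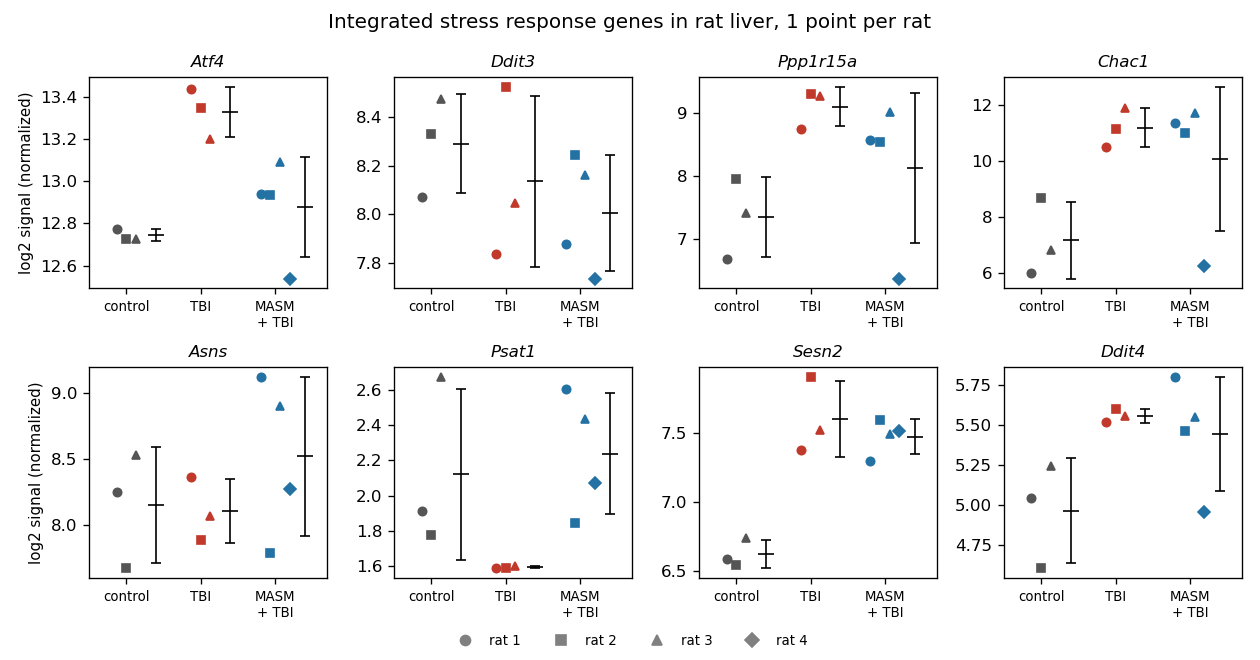
Normalized log2 signal of the 8 measured members, 1 point per rat (3 control, 3 TBI, 4 MASM + TBI), with the group mean and SD at the right of each group. Sesn2 was higher in all 7 irradiated rats than in the 3 controls, while the diamond, MASM + TBI rat 4, lay among or below the controls for Atf4, Chac1, Ppp1r15a and Ddit4. Psat1 was not well above background on any array.

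Atf4 (NCBI gene 79255) is the transcription factor that carries out the program. Its log2 signal was 12.78, 12.73 and 12.73 in the control rats, 13.44, 13.35 and 13.20 in the TBI rats, and 12.94, 12.93, 13.09 and 12.54 in MASM + TBI rats 1 to 4. All TBI rats lay above all other rats, and the MASM + TBI rats lay on both sides of the controls. Group means were 12.74 ± 0.03 (SD, n = 3), 13.33 ± 0.12 (SD, n = 3) and 12.88 ± 0.24 (SD, n = 4). The difference of TBI from control was 0.59 on the log2 scale (SE 0.14, adjusted p = 0.0477 in limma), just past both thresholds. The call was lost in 7 of the 10 fits that left out 1 rat, those without any 1 control, without TBI rat 1 or 2, or without MASM + TBI rat 1 or 2, and the adjusted p over those 10 fits ran from 0.0171 to 0.132. It was also lost when only the TBI and control arrays were fitted (adjusted p = 0.0504 in limma) and in the methods' t-test (adjusted p = 0.252). The study listed Atf4 for its change in these same rats, so its rise here is not independent evidence.

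The order of Atf4 levels was TBI, then MASM + TBI, then control. MASM + TBI differed from TBI by -0.45 (SE 0.13, adjusted p = 0.137 in limma, 95% interval -0.75 to -0.16), with all 4 MASM + TBI rats below all 3 TBI rats, and this neighbouring pair did not pass the test. MASM + TBI and control differed by 0.13 (SE 0.13, adjusted p = 0.695 in limma), which was within the spread between rats. Over the 10 arrays the genes whose signal ran most like that of Atf4, among 8430 named genes well above background on every array, were Gadd45b (Pearson r = 0.967), Slc6a11 (0.952), Dbr1 (0.937), Adgrg5 (0.924) and Mef2d (0.922). These correlations describe 10 arrays that fall into 3 groups.

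Ddit3 (NCBI gene 29467), which encodes CHOP, a C/EBP-family factor downstream of ATF4, did not follow Atf4. Its log2 signal was 8.07, 8.33 and 8.48 in control rats, 7.84, 8.53 and 8.05 in TBI rats and 7.88, 8.25, 8.16 and 7.73 in MASM + TBI rats. The 3 groups overlapped, and the estimated differences were -0.16 for TBI against control (adjusted p = 0.690 in limma, 95% interval -0.63 to 0.32) and -0.29 for MASM + TBI against control (adjusted p = 0.533). A rise of Ddit3 in TBI rats by more than 0.32 on the log2 scale lay outside that interval.

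Ppp1r15a (NCBI gene 171071) encodes GADD34, which recruits a phosphatase to eIF2 and so restores translation. Its log2 signal was 6.68, 7.94 and 7.41 in control rats, 8.74, 9.29 and 9.26 in TBI rats and 8.57, 8.53, 9.01 and 6.37 in MASM + TBI rats 1 to 4. Rat 4 was the lowest of all 10 rats, while the other 3 MASM + TBI rats lay above every control. The difference of TBI from control was 1.75 (SE 0.64, adjusted p = 0.150 in limma). Without MASM + TBI rat 4, whose deviation enters the shared estimate of the spread, the same difference had a SE of 0.33 and an adjusted p of 0.0306 in limma.

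Chac1 (NCBI gene 362196) had the widest range of the members. Its log2 signal was 6.03, 8.68 and 6.82 in control rats, 10.51, 11.13 and 11.89 in TBI rats and 11.34, 11.0, 11.70 and 6.27 in MASM + TBI rats 1 to 4. All irradiated rats except MASM + TBI rat 4 lay above every control, and rat 4 lay within the control range. The difference of TBI from control was 4.0 (SE 1.39, adjusted p = 0.131 in limma, 95% interval 0.83 to 7.17), and that of MASM + TBI from control was 2.90 (SE 1.30, adjusted p = 0.306). Without rat 4 the TBI difference kept its size and had an adjusted p of 0.0221 in limma, and MASM + TBI differed from control by 4.17 (adjusted p = 0.0330). The other probe for Chac1 was well above background on 1 of 3 control, 3 of 3 TBI and 3 of 4 MASM + TBI arrays, so no fold change is given for it. Leaving out each rat in turn was planned, but rat 4 is singled out here for its values, Chac1 among them, so the p-values without it are not independent tests.

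**Figure D2:**
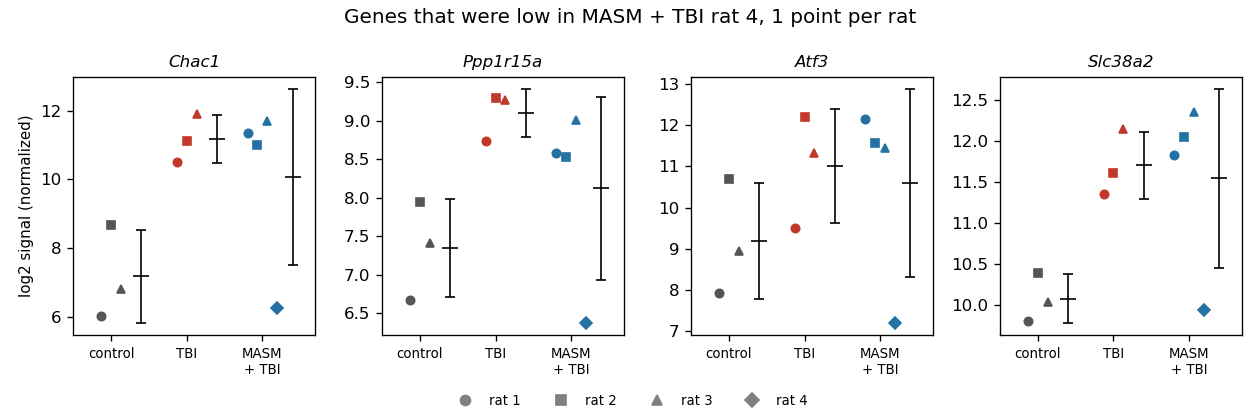
Normalized log2 signal of Chac1, Ppp1r15a, Atf3 and Slc38a2, 1 point per rat, with the group mean and SD at the right of each group. MASM + TBI rat 4 (diamond) lay at 6.27 for Chac1, 6.37 for Ppp1r15a, 7.20 for Atf3 and 9.94 for Slc38a2, in or below the range of the 3 control rats for each.

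MASM + TBI rat 4 lay with the other irradiated rats for some genes and not for others. Its Cdkn1a signal of 13.58 and its Sesn2 signal of 7.51 were within their range. Its Gdf15 signal of 8.97 was above the controls and below the other irradiated rats, its Cebpb signal of 8.56 was within the control range, and its Atf4 signal was below every control. Rat 4 shared a slide with MASM + TBI rats 1 and 2, in which Chac1, Ppp1r15a, Atf3 and Slc38a2 were high. The pair Atf3 and Slc38a2 was set beside the members, Slc38a2 after its values were seen. Atf3, a stress-induced bZIP factor, was 7.92, 10.6955 and 8.96 in control rats, 9.50, 12.20 and 11.32 in TBI rats and 12.15, 11.57, 11.45 and 7.20 in MASM + TBI rats. Slc38a2, a sodium-coupled carrier of neutral amino acids, was 9.80, 10.40 and 10.03 in control rats, 11.35, 11.61 and 12.15 in TBI rats and 11.83, 12.05, 12.36 and 9.94 in MASM + TBI rats, with an adjusted p of 0.135 for TBI against control in limma and of 0.0172 without rat 4. Control rat 2 was the highest control for Chac1, Ppp1r15a, Atf3 and Slc38a2.

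The members for amino acid synthesis did not pass the test. Asns (NCBI gene 25612), which makes asparagine and is a classical ATF4 target, was 8.25, 7.67 and 8.53 in control rats, 8.37, 7.89 and 8.07 in TBI rats and 9.12, 7.79, 8.90 and 8.27 in MASM + TBI rats. The groups overlapped throughout, with an estimated TBI difference of -0.04 (SE 0.36, adjusted p = 0.959 in limma, 95% interval -0.87 to 0.78). Psat1 (NCBI gene 293820), which serves serine synthesis, was below the level at which the scanner software called a spot well above background in all 3 groups.

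Of the members that restrain mTORC1, Sesn2 rose after irradiation and Ddit4 did not pass the test. Sesn2 (NCBI gene 502988) was 6.58, 6.54 and 6.74 in control rats, 7.38, 7.91 and 7.52 in TBI rats and 7.29, 7.59, 7.49 and 7.51 in MASM + TBI rats. Every irradiated rat lay above every control, and MASM + TBI rat 4 lay with the rest of its group. TBI differed from control by 0.98 (SE 0.14, adjusted p = 0.0093 in limma), a call that held in all 10 fits that left out 1 rat. It was lost when only the TBI and control arrays were fitted (adjusted p = 0.0535 in limma) and in the methods' t-test (adjusted p = 0.259). MASM + TBI differed from control by 0.85 (SE 0.14, adjusted p = 0.0173 in limma), and the adjusted p was 0.0699 without control rat 2, 0.0729 in the methods' t-test and 0.0516 without MASM + TBI rat 4. Another setting used normexp background correction of the raw signals with an added offset of 50. The Sesn2 differences were then 0.52 and 0.43, under the 1.5-fold threshold (adjusted p = 0.0063 and 0.0115 in limma).

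The order of Sesn2 levels was TBI, MASM + TBI and control, and the upper pair did not differ beyond its spread (-0.13, SE 0.14, adjusted p = 0.672 in limma, 95% interval -0.44 to 0.18). The genes most like Sesn2 over the 10 arrays were Dusp3 (Pearson r = 0.966), Phlda3 (0.965), Hist1h2bq (0.959), Ltk (0.958) and Mmp19 (0.958). Beyond those 5, Cdkn1a, the p53 target used to check the labels, came at rank 8 (0.947). What lay behind the likeness was not tested. Ddit4 (NCBI gene 140942), which encodes REDD1, was 5.04, 4.61 and 5.24 in control rats, 5.51, 5.60 and 5.55 in TBI rats and 5.80, 5.46, 5.55 and 4.96 in MASM + TBI rats. TBI rats lay above the controls without overlap, rat 4 lay among the controls, and the TBI difference was 0.59 (SE 0.22, adjusted p = 0.159 in limma).

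In MASM-pretreated irradiated rats against controls, Sesn2 rose 1.81-fold (n = 4 and 3) and was the one member that passed the test. This is 1 of 8 measured members, where 0.926% of all probes were higher by the same rule. At the study's unadjusted threshold it was again 1 member, where 3.52% of all probes were higher. For 1 member, Sesn2, the groups did not overlap, where 9.35% of all probes lay higher without overlap. Without MASM + TBI rat 4 it was 5 of 8 (Atf4, Ppp1r15a, Chac1, Ddit4 and Sesn2), where 11.6% of all probes did so. The median log2 difference of the 8 members was 0.42, beside 0.00 for all probes. Chac1, Ppp1r15a, Ddit4 and Atf4 had estimated differences of 2.90, 0.78, 0.48 and 0.13, and without rat 4 of 4.17, 1.36, 0.64 and 0.25. Within the slide that held the controls and MASM + TBI rat 3, the only such rat on it and assumed in the fit to vary like the rats on the other slides, the differences were 0.87 for Sesn2 (adjusted p = 0.149 in limma), 4.53 for Chac1 (adjusted p = 0.404) and 0.35 for Atf4 (adjusted p = 0.490).

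The calls against control rest in part on MASM + TBI rat 4. Without it, 4 members were higher in TBI rats, namely Atf4, Ppp1r15a, Chac1 and Sesn2, where 1.84% of all probes were, a count that rests on a rat singled out for its values. In MASM + TBI rats 1 member, Chac1, then passed as higher, where 0.542% of all probes were. Sesn2 no longer passed there, with a difference of 0.84 (adjusted p = 0.0516 in limma) that was close to the one with all rats and still without overlap.

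Between MASM + TBI and TBI rats no member passed the test in limma, where 1.39% of all probes did in either direction. At an unadjusted p under 0.05 and 1.5-fold 1 member passed, Psat1, which was not well above background, where 7.98% of all probes did. Atf4 was the 1 member whose MASM + TBI values lay below the TBI values without overlap, and 5.88% of all probes did so. The median log2 difference of the 8 members was -0.13, beside 0.04 for all probes. The estimated differences were -0.98 for Ppp1r15a (95% interval -2.36 to 0.40), -1.10 for Chac1 (-4.07 to 1.87), -0.11 for Ddit4 (-0.59 to 0.36), -0.13 for Ddit3 (-0.58 to 0.31) and 0.41 for Asns (-0.36 to 1.18). Without rat 4 the difference was -0.39 for Ppp1r15a, 0.17 for Chac1 and 0.05 for Ddit4, while Atf4 kept -0.34 (adjusted p = 0.150 in limma). Since both comparisons with control use the same 3 control rats, their values for the members are given side by side and not as a relation.

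**Figure D3:**
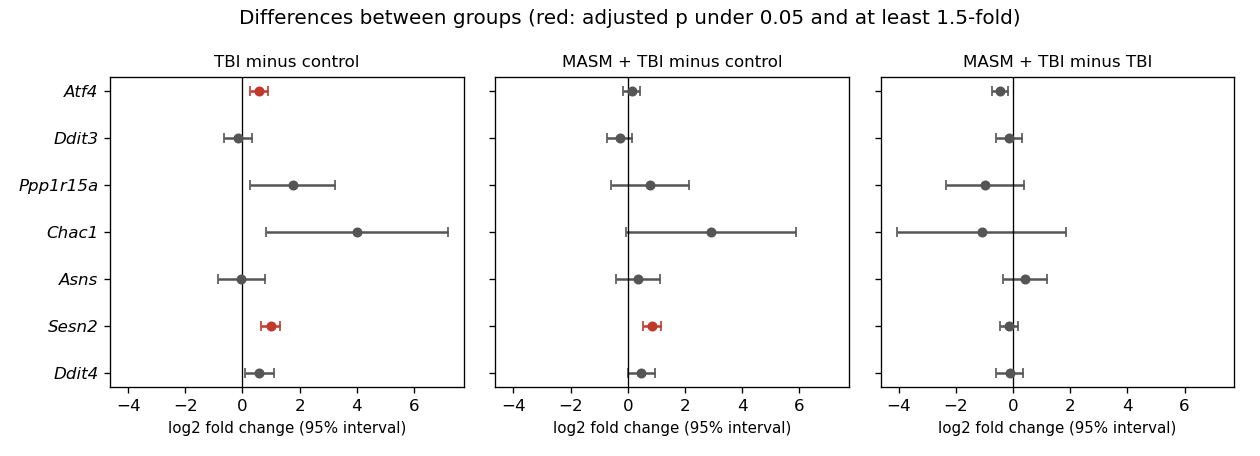
Log2 fold change (horizontal axis, with its 95% interval) of the 7 members above background in the 3 comparisons; red marks an adjusted p under 0.05 with at least 1.5-fold. Atf4 and Sesn2 were called for TBI against control and Sesn2 for MASM + TBI against control, while the intervals of Chac1 and Ppp1r15a were the widest.

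Of 66 other genes of the pathway, 58 had a probe. In TBI rats 1 rose and 1 fell, 2 of 58 where 4.5% of all probes passed in either direction, and the median log2 difference was -0.04. In MASM + TBI rats against control 2 rose and 1 fell, where 2.35% of all probes passed, with a median of 0.08. None passed between MASM + TBI and TBI in limma, where 1.39% of all probes did. At an unadjusted p under 0.05 and 1.5-fold 2 of 58 passed, where 7.98% of all probes did. By that unadjusted rule in either direction, 8 of 58 passed in TBI rats against control, where 12.6% of all probes did, and 10 of 58 in MASM + TBI rats against control, where 8.06% did.

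Among the eIF2 kinases, eIF2, its exchange factor eIF2B and regulators such as Ppp1r15b, Dnajc3 and Impact, 0 of 12 measured genes passed in TBI rats in limma, where 4.5% of all probes did. At an unadjusted p under 0.05 and 1.5-fold 1 did (Eif2ak2, lower), where 12.6% of all probes did, and in MASM + TBI rats against control 1 was higher (Eif2b3) and 1 lower (Eif2ak2), where 8.06% of all probes passed. The largest estimates for TBI against control were -0.64 for Eif2ak2, which encodes the kinase PKR (adjusted p = 0.106 in limma), and 0.38 for Impact, an inhibitor of the kinase GCN2 (adjusted p = 0.360). Of the other probes for Impact, 1 was not well above background on any control array, and the remaining pair, above it on 2 of 3 control and 3 of 3 TBI arrays, gave -0.68 and 0.09, so no direction is given for it. In MASM + TBI rats Eif2ak2 lay lower than in all controls, by -0.79 (adjusted p = 0.069 in limma), and its other, dimmer probe passed the test at -0.93 (adjusted p = 0.0295). In MASM + TBI rats Eif2b3, a subunit of eIF2B, rose by 0.64 against control (SE 0.12, adjusted p = 0.0288 in limma). Its signal was 7.44 to 7.52 in control rats, 7.51 to 7.95 in TBI rats and 7.99 to 8.28 in MASM + TBI rats. That call was lost in 6 of the 10 fits that left out 1 rat, those without any 1 control or without MASM + TBI rat 1, 3 or 4 (adjusted p from 0.0188 to 0.107), and the gene's other probe gave 0.35 (adjusted p = 0.316). MASM + TBI differed from TBI by 0.37 for Eif2b3 (adjusted p = 0.165) and by 0.31 for Eif2b1 (adjusted p = 0.265).

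Of 5 further nuclear factors of the response, the bZIP partners of ATF4 and Nupr1, none passed in any comparison in limma. Of all probes, 4.5% did for TBI against control, 2.35% for MASM + TBI against control and 1.39% between the irradiated groups. At an unadjusted p under 0.05 and 1.5-fold, 1 was higher in TBI rats (Cebpb), where 6.53% of all probes were, and 1 lower in MASM + TBI rats against control (Nupr1), where 8.06% of all probes passed in either direction. Cebpb encodes the liver factor C/EBP beta. Cebpb was 8.46, 8.89 and 8.89 in control rats, 9.42, 9.29 and 9.79 in TBI rats and 8.97, 9.13, 9.24 and 8.56 in MASM + TBI rats. Like Atf4, it lay higher in all TBI rats than in all other rats, by 0.76 against control (SE 0.21, adjusted p = 0.080 in limma) and 0.53 against MASM + TBI (adjusted p = 0.229). Atf3 had an estimated TBI difference of 1.82 (SE 1.36, adjusted p = 0.460) and a MASM + TBI difference from control of 1.40 (adjusted p = 0.677), with overlap in both. The latter rests in part on MASM + TBI rat 4, at 7.20 beside 11.45 to 12.15 in rats 1 to 3. Nupr1, a stress-induced nuclear protein that is no bZIP factor, differed by -0.63 between MASM + TBI and control (adjusted p = 0.270), and Jdp2, a bZIP repressor, by 0.76 between MASM + TBI and TBI (adjusted p = 0.579), with 2 of 4 and 2 of 3 arrays well above background. Both estimates rest in part on MASM + TBI rat 4. In MASM + TBI rats 1 to 4 Nupr1 was 12.19, 11.71, 12.02 and 11.04, and Jdp2 was 5.44, 4.27, 4.39 and 6.33.

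The 12 measured cytosolic tRNA synthetases, a standard group of ATF4 targets, stayed within a narrow band for TBI against control, by the brightest probe of each. None passed in any comparison in limma, where 4.5%, 2.35% and 1.39% of all probes did in the same order. At an unadjusted p under 0.05 and 1.5-fold the count was 0 as well, where 12.6%, 8.06% and 7.98% of all probes passed. A count of 0 among 12 genes does not set this list apart from those shares. Their log2 differences for TBI against control ran from -0.34 (Sars1, for serine, adjusted p = 0.151) to 0.27 (Eprs1, for glutamate and proline, adjusted p = 0.180), with a median of 0.00. The other probe for Iars1 lay beyond that range at 0.46 (adjusted p = 0.274 in limma, no overlap). Those for Lars1, Mars1, Nars1 and Wars1 lay from -0.10 to -0.02. In MASM + TBI rats against control 10 of 12 estimates were above 0, led by 0.48 for Nars1, for asparagine (adjusted p = 0.097), and 0.36 for Yars1, for tyrosine (adjusted p = 0.179). Their median there was 0.15, beside 0.00 for all probes. Against TBI the estimates were 0.54 for Nars1 (adjusted p = 0.0985, no overlap) and 0.23 for Yars1 (adjusted p = 0.396). The other probe for Nars1 did overlap, at 6.99 to 7.47 in MASM + TBI rats and 6.89 to 7.25 in TBI rats.

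Amino acid and one-carbon enzymes passed in no comparison in limma, 0 of 11 measured, beside 4.5%, 2.35% and 1.39% of all probes. At an unadjusted p under 0.05 and 1.5-fold 1 passed in TBI and 2 in MASM + TBI rats against control, beside 12.6% and 8.06% of all probes. The gene that passed so in TBI rats was Got1, an aspartate aminotransferase, which was higher by 1.14 (SE 0.39, adjusted p = 0.125, with overlap) and by 0.70 in MASM + TBI rats (adjusted p = 0.393). The largest estimates in TBI rats were -1.66 for the mitochondrial folate enzyme Mthfd2 (SE 0.86, adjusted p = 0.284) and -1.56 for Phgdh, the first enzyme of serine synthesis (SE 0.75, adjusted p = 0.254), both without overlap with the controls. Mthfd2, well above background in 2 of 4 MASM + TBI rats, stood at -1.89 there against control (adjusted p = 0.276). Its control values were 7.19, 4.49 and 4.54, and without control rat 1 the differences were -0.77 and -1.0. Of the other probes for Mthfd2, 1 gave -1.08 for TBI against control, and 1 was not well above background on any control array, so no difference is given for it. Between MASM + TBI and TBI, Phgdh differed by 0.89 (adjusted p = 0.565) and Gpt2, an alanine aminotransferase of mitochondria, by 0.56 (adjusted p = 0.235, no overlap). Both estimates lean on single rats. Phgdh ran from 7.88 (rat 2) to 10.80 (rat 1) in MASM + TBI rats, and Gpt2 was 9.34, 9.11 and 8.36 in TBI rats 1 to 3.

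Of 8 measured amino acid transporters, Slc7a3, a carrier of cationic amino acids, passed as lower in both irradiated groups against control (limma, adjusted p = 0.0012 and 0.0011). It was well above background in 1 of 3 control rats, control rat 2 at 4.99, and in none of the 7 irradiated rats, so these p-values compare signals mostly near or under background and no fold change is given. At an unadjusted p under 0.05 and 1.5-fold 2 transporters were higher (Slc38a2 and Slc1a4) and 2 lower (Slc7a3 and Slc6a9) in TBI rats, 4 of 8 where 12.6% of all probes passed. In MASM + TBI rats against control 1 was higher (Slc38a2) and 3 lower (Slc7a3, Slc6a9 and Slc1a5), where 8.06% of all probes passed. The glycine carrier Slc6a9 lay lower without overlap in both groups, by -0.92 in TBI (adjusted p = 0.087 in limma) and -0.75 in MASM + TBI rats (adjusted p = 0.166), and Slc1a5, a glutamine carrier, differed by -1.19 in MASM + TBI rats (adjusted p = 0.058, no overlap). Between MASM + TBI and TBI, Slc1a5 differed by -0.83 (adjusted p = 0.176) and Slc6a9 by 0.17 (adjusted p = 0.781).

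Of 10 measured further targets, Gdf15 rose in both irradiated groups. This secreted stress hormone is a target of p53 as well as of ATF4 and CHOP. Its signal was 5.73, 6.64 and 6.23 in control rats, 10.18, 10.55 and 10.65 in TBI rats and 10.36, 10.88, 10.60 and 8.97 in MASM + TBI rats. Every irradiated rat lay above every control, with rat 4 the lowest of the irradiated rats. The difference from control was 4.26 in TBI rats (19.2-fold, SE 0.46, adjusted p = 0.0028 in limma) and 4.0 in MASM + TBI rats (16.0-fold, SE 0.43, adjusted p = 0.0032), and both calls held in all 10 fits that left out 1 rat. The median of the 10 targets for TBI against control was -0.28, and 4 of the 10 lay lower in all TBI rats than in all controls (Eif4ebp1, Herpud1, Sqstm1 and Adm2, the last not well above background on any array), where 19% of all probes did. Another 2 lay higher without overlap (Gdf15 and Fgf21), where 11.3% of all probes did. Fgf21 was 7.68 to 8.55 in control, 8.64 to 9.03 in TBI and 7.98 to 9.99 in MASM + TBI rats, and did not pass the test. Eif4ebp1, which restrains cap-dependent translation, differed by -0.56 (adjusted p = 0.0089 in limma) and Herpud1, a protein of endoplasmic reticulum quality control, by -0.53 (adjusted p = 0.0368), both under 1.5-fold and named after their values were seen. Between MASM + TBI and TBI Herpud1 differed by 0.27 (adjusted p = 0.246).

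**Figure D4:**
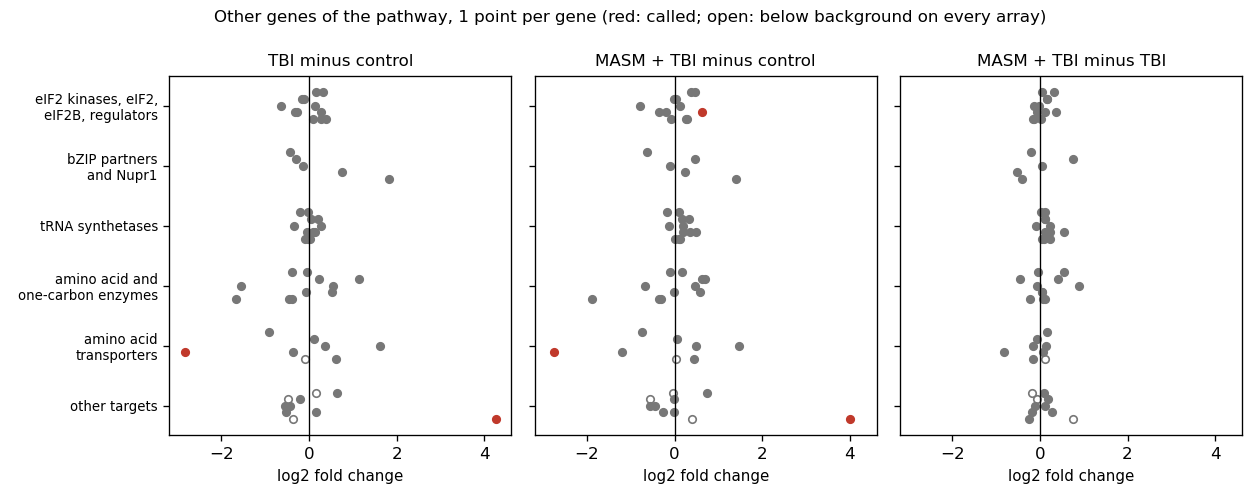
Log2 fold change of each of the 58 other measured genes of the pathway, by list, in the 3 comparisons; vertical offsets within a list only separate the points, red marks genes that passed the test and open circles genes not well above background on any array. Gdf15 stood at 4.26 and 4.0 against control, the red point at the far left is Slc7a3, from signals mostly near or under background, and the tRNA synthetases lay near 0.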

How the data were processed

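Liver RNA of 10 rats had been labelled with Cy3 and scanned with 1 array per rat. The authors deposited spot intensities from Agilent Feature Extraction 10.7.3.1, background-subtracted and not normalized between arrays, and their table of processed values was identical to these. Groups and replicate numbers came from the labels. Control spots (1639 per array) and outlier spots (76 to 112) were left out, and no spot was saturated (0 on every array). Log2 intensities were quantile normalized between arrays and averaged per probe, which left 40945 of 41012 probes. Symbols came from RefSeq accessions (16968 probes). The brightest probe stood for a gene with several.

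A mean per group was fitted to all 10 arrays in limma 3.58.1 (R 4.3.3, prior degrees of freedom 1.43), with Benjamini-Hochberg adjustment over all probes. A gene was called at an adjusted p under 0.05 and 1.5-fold. Nothing says whether same-group arrays came from separate experiments beyond separate rats, and the number of arrays limits the precision. Promoter letters were searched, and plots drawn, in Python 3.11.15 with matplotlib 3.10.9.

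The members and gene lists were chosen with earlier results of these data known. Named were all members, the called genes of each other list (at most 4), or the 2 largest estimates where none was called, and up to 5 genes most like Atf4 and Sesn2. Replicate numbers were shared between groups, but the deviations of same-numbered arrays correlated at -0.13 to 0.17, so they were not taken as pairs.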

Additional observations from a re-analysis of the deposited data

Results flagged for a closer look

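Chac1 in MASM + TBI rat 4 stood apart from the other 3 MASM + TBI rats, since the gap to its nearest neighbour took 0.871 of the group's range, above Dixon's 95% limit for 4 samples. Atf3 in the same rat took 0.859, above the same limit. Chance flags about 1 in 20 groups so tested. The cause was not tested.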

How the results depend on the processing

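Of 8 measured members, 2 passed for TBI against control, 1 for MASM + TBI against control and 0 for MASM + TBI against TBI, and of 58 other pathway genes 2, 3 and 0. Counts that moved by over 1.5 times follow in the same order. The normexp background correction gave 0 and 0 members for the comparisons with control, and the methods' t-test 0 of either kind against control after Benjamini-Hochberg adjustment, where it called 10 and 28 of all 40945 probes. At the study's own threshold, which takes the p unadjusted, that t-test (a setting chosen after seeing the data) gave 4, 1 and 1 members and 4, 7 and 1 other genes. The fit of only the 2 groups compared gave 0 members for TBI. That threshold on the limma p gave 5 members for TBI and 1 for MASM + TBI against TBI, and 8, 10 and 2 other genes. Scaling to the 75th percentile gave 1 member and 1 other gene between the irradiated groups (Psat1 and Adm2, both dim) and 5 other genes for TBI, and leaving out dim probes gave 1 (Gdf15). Slide as a random block gave 1 member for TBI and 7 and 7 other genes against control, and slide as a fixed block 0 members for MASM + TBI against control, the 1 comparison it could estimate. The replicate numbers did not pair the rats (above), and with the replicate block 0 members passed for MASM + TBI against control and 3 for TBI (Ppp1r15a, Chac1 and Sesn2), while the differences between MASM + TBI and TBI turned to 0.17 for Chac1 and 0.047 for Ddit4, as that fit makes no use of rat 4. Leaving out 1 rat in turn gave 1 to 4 members for TBI, 0 to 1 for MASM + TBI against control, 2 to 4 other genes for TBI and 0 to 1 between the irradiated groups. Across those fits the sign turned for Asns in TBI against control (-0.28 to 0.15) and, in MASM + TBI against TBI, for Chac1 (-1.64 to 0.17), Ddit3 (-0.28 to 0.064), Ddit4 (-0.23 to 0.047), Sesn2 (-0.24 to 0.026) and Slc6a9 (-0.12 to 0.40). No other difference that was recomputed turned sign, and the causes were not tested. The deposited table, a trended and robust prior and the mean of a gene's probes kept every count within 1.5 times. Psat1 and Slc7a3 were limited by signal near background, and 3 or 4 arrays a group limited the rest.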
